A study of Mus musculus with 6 samples.

Results

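The genes for 4 Notch receptors (Notch1, Notch2, Notch3 and Notch4), 4 of their ligands (Dll1, Dll4, Jag1 and Jag2) and 2 targets of the pathway (Hes1 and Hey1) were examined in mouse primary uterine stromal cells (mUSCs) with and without PBRM1, a bromodomain subunit of the SWI/SNF chromatin remodeler. They were chosen by name as the core of the pathway, and all 10 were found among the 54232 genes of the count table. RNA-seq libraries were made from 3 preparations labelled WT and 3 labelled Pbrm1 cKO. Per the study's methods, the WT mice carried Pbrm1 fl/fl without Cre, and the Pbrm1 cKO mice carried Pbrm1 fl/fl with PR IRES-cre, which is expressed from the progesterone receptor locus and so acts in PR-positive cells rather than in stroma alone. Both groups therefore shared the floxed alleles, an age of 8 to 12 weeks and day 4 of pseudopregnancy, the day on which the uterus is receptive to an embryo. Each preparation pooled 5 to 10 uterine horns, and RNA was taken after 4 h of plating and 2 h in fresh medium.

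Notch receptors are single-pass membrane proteins that are switched on by ligands on a neighbouring cell. Ligand binding exposes the receptor to cleavage by an ADAM protease and then by gamma-secretase, and the released intracellular domain joins the DNA-binding protein RBPJ and a Mastermind coactivator to turn on genes such as those of the Hes and Hey repressors. The pathway is best known for choices of cell fate and for the growth and patterning of blood vessels, in which Notch4 and Dll4 mark endothelium and Notch3 marks the mural cells around it. In the uterus, Notch signaling has been linked to decidualization of the stroma.

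Pbrm1 itself (ENSMUSG00000042323.17, chr14:31019138-31121592 in GRCm38, as for all gene positions below) was measured at 1354, 1385 and 1677 normalized counts (counts divided by the DESeq2 size factor of the library) in WT replicates 1 to 3 and at 397, 459 and 451 in Pbrm1 cKO replicates 1 to 3. The groups lay well apart, at a log2 fold change of -1.76 ± 0.13 (SE, DESeq2 adjusted p = 5.195e-40), and 29.6% of the WT mean was left. Total counts ranged from 13253575 to 18338667 per library, so the libraries were of similar depth. WT replicate 1 stood apart: its counts differed from those of WT replicates 2 and 3 by 5.37 and 7.67 times sampling noise, against 3.62 between those 2 and 1.54 to 2.53 within Pbrm1 cKO. The biological coefficient of variation was 0.16 in WT and 0.047 in Pbrm1 cKO. Values without WT replicate 1 are therefore given beside the results of the 10 members.

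The cell type label was checked with marker lists, each summed per library in normalized counts. Vim and Pdgfra, which mark stromal fibroblasts, were abundant in every library, with Vim between 27268 and 36871 and Pdgfra between 13916 and 17884, and none of the 12 stromal markers was at 0. The stromal sum was nevertheless lower in the knockout, at 121510, 104490 and 105910 in WT and 86103 to 93404 in Pbrm1 cKO, with 7 of 12 markers falling and 1, Pdgfra, rising (15.2% and 15.9% of all genes tested did so). Markers of other cells were also present. The sum of 12 endothelial markers was 3447, 6820 and 6882 in WT replicates 1 to 3 and 2966 to 3551 in Pbrm1 cKO. By this sum WT replicate 1 was near the knockout libraries, but Eng was its largest part in every library. Single markers differed: Pecam1 was 137 in WT replicate 1 and 262 to 332 in Pbrm1 cKO, whereas Cdh5 was 774 and 190 to 201. The sum of 12 leukocyte markers was 3890, 8367 and 8273 in WT and 34200 to 35731 in Pbrm1 cKO, and 10 of its 11 tested genes rose, against the same 15.9%. The sum of 12 epithelial markers was 1913, 3368 and 3194 in WT and 3430 to 3623 in Pbrm1 cKO. Of its 11 tested genes 3 rose and 0 fell (15.9% and 15.2% of all genes did so). The 10 smooth muscle markers summed to 55505 to 59912 in WT and 53474 to 55565 in Pbrm1 cKO, a sum made up mostly of Tagln and Des, and 4 of the 9 tested fell (15.2% of all genes did). The 8 mural markers summed to 9507 to 10345 in WT and 10498 to 11673 in Pbrm1 cKO, a sum made up mostly of Pdgfrb and Cspg4, which the stroma also expresses, and of these markers 1 rose and 2 fell. The markers at 0 in some library were Higd1b (mural) in WT replicate 1, Foxa2 (epithelial) in WT replicate 2, and Nkg7 (leukocyte) in WT replicates 1 and 3. In such bulk samples, fewer cells of a type and less RNA per cell cannot be told apart.

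Of the 10 Notch genes, 3 rose in Pbrm1 cKO (Notch1, Notch2 and Jag1), by 1.83- to 2.48-fold. Over all 17474 genes tested, 15.9% rose, 15.2% fell and 31.1% changed in either direction (DESeq2, adjusted p under 0.05). None of the 10 fell at that threshold with all libraries, although 2 (Notch3 and Notch4) were lower at an unadjusted p under 0.05. The edgeR quasi-likelihood test also called 0 lower. Without WT replicate 1, the same 3 genes rose and 4 fell (Notch3, Notch4, Jag2 and Hey1), against a background of 18.3% of genes rising and 17.2% falling in that fit. With filterByExpr applied before the fit 1 fell (Notch4, where 18.7% of genes fell), and with a trend over gene length removed 2 fell (Notch3 and Notch4, where 15.7% of genes fell). All 3 Pbrm1 cKO libraries lay above all 3 WT libraries for 3 genes (24.0% of all genes tested did so) and below them for 1 gene, Hes1 (24.6%).

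**Figure D1:**
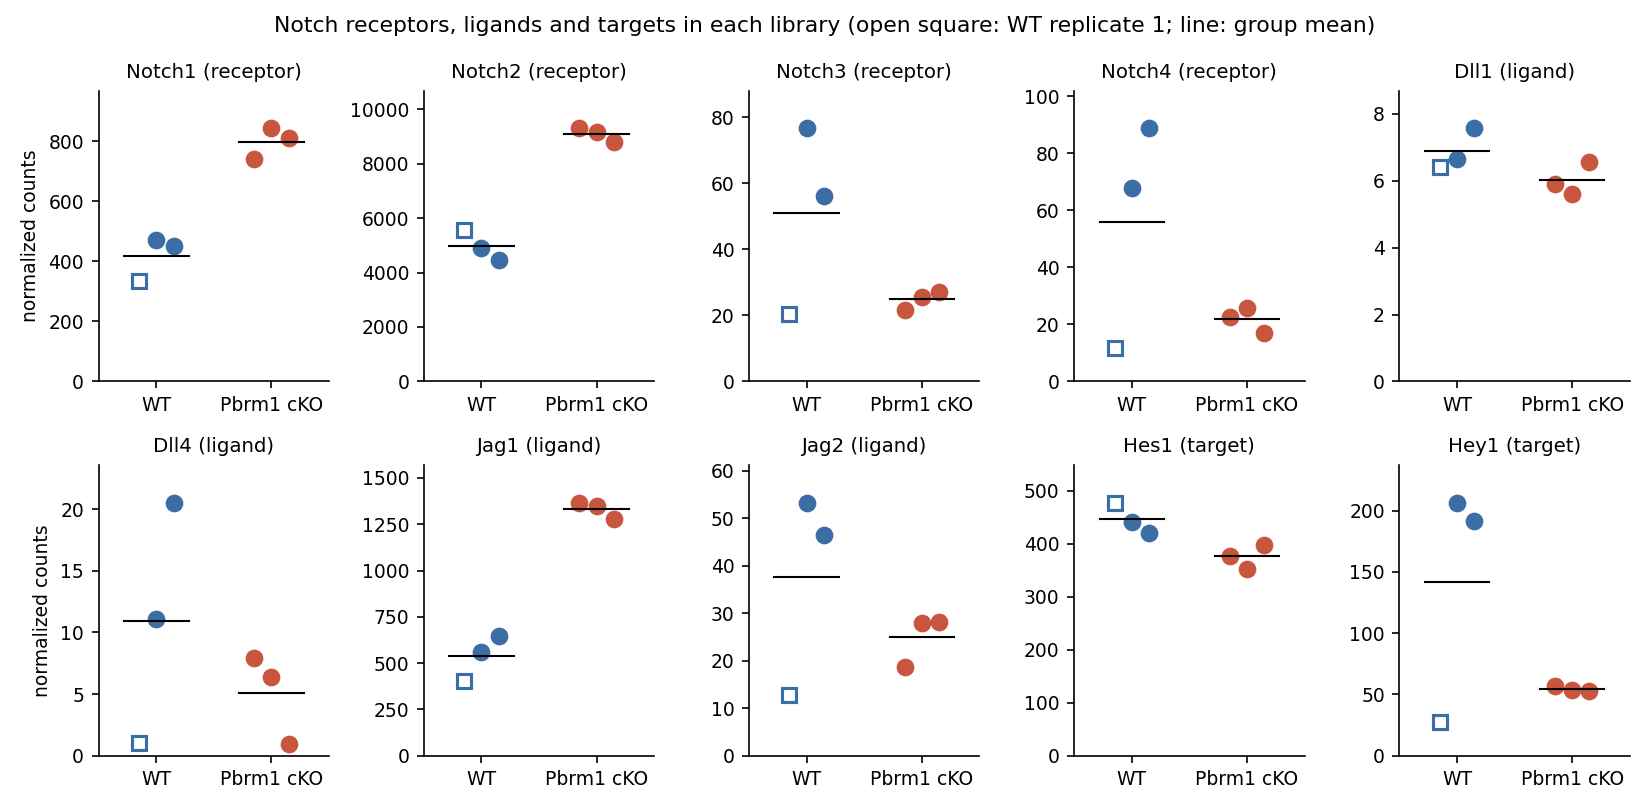
Normalized counts (vertical axes, linear from 0) of the 10 Notch genes in 3 WT (blue) and 3 Pbrm1 cKO (red) libraries, with a line at each group mean and WT replicate 1 as an open square. Notch1, Notch2 and Jag1 were above WT in all Pbrm1 cKO libraries, whereas for Notch3, Notch4, Jag2 and Hey1 the open square lay below the Pbrm1 cKO libraries and the other WT libraries above them.

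Among the receptors, the more abundant pair rose and the scarcer pair did not. Notch1 (ENSMUSG00000026923.15, chr2:26457903-26516663), a broadly used receptor, was measured at 333, 471 and 451 normalized counts in WT and at 741, 843 and 811 in Pbrm1 cKO. Every knockout library was above every WT library. Its log2 fold change was 0.93 ± 0.15 (SE, adjusted p = 9.335e-09), or 1.91-fold, and 0.79 without WT replicate 1 (adjusted p = 1.083e-09).

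Notch2 (ENSMUSG00000027878.11, chr3:98013527-98150361), the receptor with the highest level here, was measured at 5547, 4893 and 4468 in WT and at 9294, 9164 and 8787 in Pbrm1 cKO. The lowest knockout library exceeded the highest WT library, which was WT replicate 1. Notch2 rose by 0.87 ± 0.10 on the log2 scale (SE, adjusted p = 9.798e-16), or 1.83-fold, and 0.96 without WT replicate 1 (adjusted p = 3.999e-31).

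Notch3 (ENSMUSG00000038146.7, chr17:32120820-32166880) was measured at 20.3, 76.6 and 56.2 in WT and at 21.7, 25.6 and 27.2 in Pbrm1 cKO. WT replicate 1 lay below all knockout libraries, and the other WT libraries lay above them, so the groups overlapped through 1 library. With all libraries the log2 fold change was -1.04 ± 0.46 (SE, adjusted p = 0.0732), and without WT replicate 1 it was -1.42 (adjusted p = 0.00092).

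Notch4 (ENSMUSG00000015468.14, chr17:34564268-34588503), a receptor largely of endothelium, was measured at 11.8, 67.7 and 88.6 in WT and at 22.7, 25.6 and 16.9 in Pbrm1 cKO. As for Notch3, WT replicate 1 was the lowest library, and the other WT libraries lay above the knockout. The log2 fold change was -1.36 ± 0.57 (SE, adjusted p = 0.0527) with all libraries and -1.84 (adjusted p = 9.475e-06) without WT replicate 1. Notch3 and Notch4 were among the implantation-related genes that the study displayed as downregulated from these same libraries, so their direction is not independent of that choice. In the DESeq2 fit here their unadjusted p-values were 0.0248 and 0.0166, so neither passed the study's filter of p under 0.01.

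Among the ligands, Jag1 alone rose. Jag1 (ENSMUSG00000027276.7, chr2:137081456-137116644), a Serrate-type ligand, was measured at 404, 560 and 645 in WT and at 1366, 1349 and 1281 in Pbrm1 cKO. The groups did not overlap, and the knockout libraries were closer to each other than the WT libraries were. Jag1 rose by 1.31 ± 0.16 on the log2 scale (SE, adjusted p = 9.36e-15), or 2.48-fold, the largest rise among the 10 genes, and it was 1.14 without WT replicate 1 (adjusted p = 1.772e-23).

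Jag2 (ENSMUSG00000002799.6, chr12:112907819-112929776), the other Serrate-type ligand, was measured at 12.8, 53.3 and 46.5 in WT and at 18.7, 28 and 28.1 in Pbrm1 cKO. WT replicate 1 was again the lowest library. The log2 fold change was -0.58 ± 0.50 (SE, adjusted p = 0.427) with all libraries, with a 95% interval from -1.57 to 0.40, and -0.99 (adjusted p = 0.042) without WT replicate 1.

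Both Delta-type ligands were near the limit of what this depth could show. Dll4 (ENSMUSG00000027314.6, chr2:119325784-119335962), which guides sprouting of vessels, had raw counts of 1, 10 and 19 in WT and of 8, 8 and 1 in Pbrm1 cKO. Its highest libraries were WT replicates 2 and 3, and its lowest were 1 library of each group. The log2 fold change was -1.10 ± 1.00 (SE, adjusted p = 0.455), with a 95% interval from -3.05 to 0.85, and -1.64 (adjusted p = 0.13) without WT replicate 1.

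Dll1 (ENSMUSG00000014773.13, chr17:15367354-15376872) was measured at 6.41, 6.66 and 7.57 normalized counts in WT and at 5.92, 5.59 and 6.57 in Pbrm1 cKO. The groups overlapped and WT replicate 1 did not stand apart. Dll1 had a log2 fold change of -0.19 ± 0.75 (SE, adjusted p = 0.89), and its 95% interval from -1.67 to 1.28 was too wide to show a change of 2-fold either way. Without WT replicate 1 it was -0.24 (adjusted p = 0.87).

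Neither of the 2 targets passed the threshold with all libraries. Hes1 (ENSMUSG00000022528.8, chr16:30064384-30067796), a helix-loop-helix repressor, was measured at 478, 442 and 420 in WT and at 378, 353 and 398 in Pbrm1 cKO. It was the only member whose knockout libraries all lay below the WT libraries. The difference was small, however, with a log2 fold change of -0.25 ± 0.13 (SE, adjusted p = 0.133), a 95% interval from -0.50 to 0.0023, and -0.20 (adjusted p = 0.275) without WT replicate 1.

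Hey1 (ENSMUSG00000040289.8, chr3:8663359-8667256), a related repressor that is prominent in vessels, was measured at 27.8, 206 and 191 in WT and at 57.2, 53.5 and 52.5 in Pbrm1 cKO. WT replicate 1 was below all knockout libraries, whereas WT replicates 2 and 3 were 3.65-fold above the knockout mean. The log2 fold change was -1.38 ± 0.78 (SE, adjusted p = 0.178), with a 95% interval from -2.90 to 0.14, and -1.87 (adjusted p = 3.506e-14) without WT replicate 1.

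**Figure D2:**
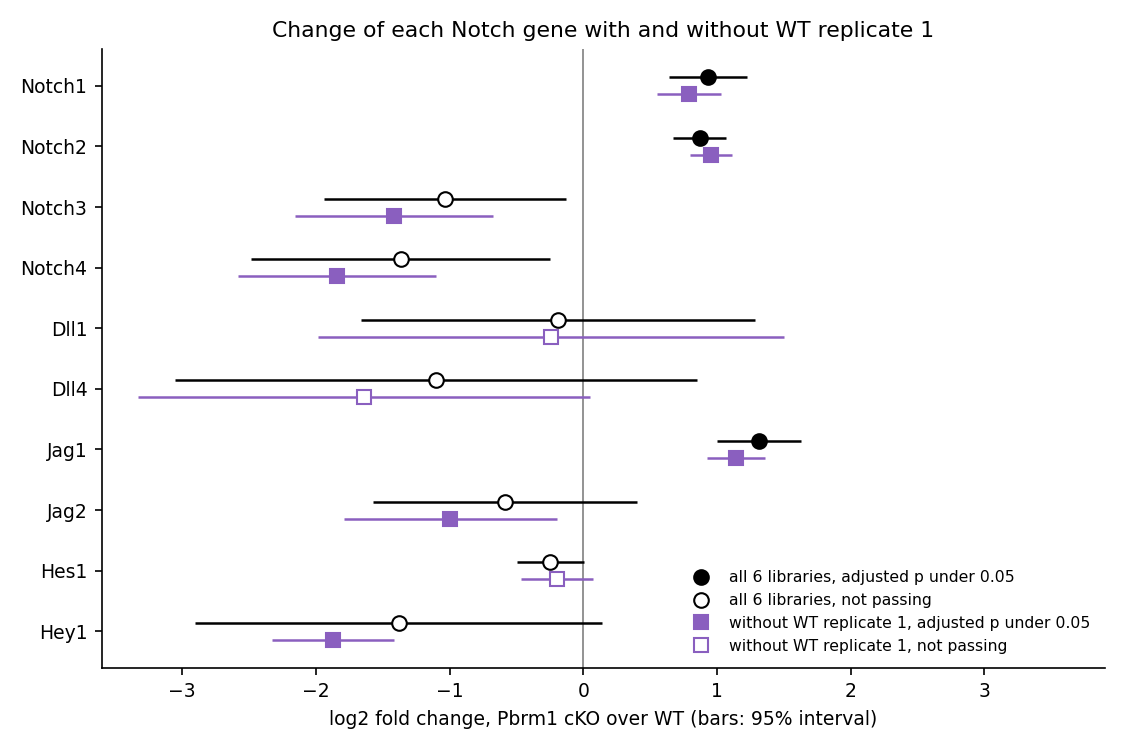
Log2 fold change (horizontal axis, Pbrm1 cKO over WT) of each Notch gene with its 95% interval, with all 6 libraries (black circles) and without WT replicate 1 (purple squares), filled where the adjusted p was under 0.05. The 3 genes that rose were filled in both fits, whereas Notch3, Notch4, Jag2 and Hey1 were filled only in the fit without that library.

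To show the regulatory sequence of the genes that moved together, the windows of 250 bases before to 50 bases after the RefSeq start site (GRCm38.p6) are given for Notch1, Notch2 and Jag1, which rose, and for Notch4, the receptor with the fewest CG pairs in its window. Each runs 5′ to 3′ on the strand of the gene, and capitals mark CG pairs.
Notch1, chr2:26503773-26504072, minus strand: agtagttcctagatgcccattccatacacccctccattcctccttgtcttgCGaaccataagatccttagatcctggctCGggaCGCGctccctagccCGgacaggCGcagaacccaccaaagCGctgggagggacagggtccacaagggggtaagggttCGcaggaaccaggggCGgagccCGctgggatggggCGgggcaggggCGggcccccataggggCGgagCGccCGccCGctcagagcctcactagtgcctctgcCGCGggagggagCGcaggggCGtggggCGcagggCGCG
Notch2, chr3:98013288-98013587, plus strand: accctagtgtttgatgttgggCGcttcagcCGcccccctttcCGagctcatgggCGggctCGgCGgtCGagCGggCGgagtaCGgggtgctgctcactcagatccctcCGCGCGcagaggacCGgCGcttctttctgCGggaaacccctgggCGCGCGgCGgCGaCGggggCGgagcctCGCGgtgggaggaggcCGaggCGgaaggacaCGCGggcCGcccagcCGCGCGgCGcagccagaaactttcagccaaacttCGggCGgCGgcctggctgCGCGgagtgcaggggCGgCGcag
Jag1, chr2:137116471-137116770, minus strand: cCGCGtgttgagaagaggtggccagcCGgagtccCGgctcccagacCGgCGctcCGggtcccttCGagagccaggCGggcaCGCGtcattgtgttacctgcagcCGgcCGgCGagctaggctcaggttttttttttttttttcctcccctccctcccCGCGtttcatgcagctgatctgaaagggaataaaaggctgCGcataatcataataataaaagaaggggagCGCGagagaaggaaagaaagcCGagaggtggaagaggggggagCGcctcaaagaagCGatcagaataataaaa
Notch4, chr17:34564045-34564344, plus strand: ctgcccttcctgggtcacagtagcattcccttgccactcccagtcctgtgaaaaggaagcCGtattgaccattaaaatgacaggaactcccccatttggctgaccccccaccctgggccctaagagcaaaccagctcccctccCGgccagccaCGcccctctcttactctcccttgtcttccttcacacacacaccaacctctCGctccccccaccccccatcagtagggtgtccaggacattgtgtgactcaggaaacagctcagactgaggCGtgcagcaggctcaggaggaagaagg
The RefSeq table held 9 windows for 8 of the 10 members, all but Hes1 and Hey1. The windows held 23 CG pairs for Notch1, 41 for Notch2, 22 for Jag1 and 5 for Notch4, against a median of 7 over all 32851 windows of the same length. The other members had 25 (Notch3), 17 (Dll4), 63 (Jag2) and 24 and 15 (both Dll1 windows), so a high count was not limited to the genes that rose. The letters TGGGAA, the core read by RBPJ, were searched on both strands, as was GTGGGAA, which contains them. None of the 9 windows held either, whereas 25.6% and 6.38% of all windows did. The match is a count of letters in these windows and says nothing of binding.

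Levels were compared between genes only after division by exon length, as normalized counts per kb. In WT, Notch2 was highest at 461 ± 50.4 (SD, n = 3), followed by Hes1 at 219 ± 14.2, Jag1 at 92.1 ± 21, Hey1 at 43.4 ± 30.3 and Notch1 at 29.4 ± 5.21. Notch4 (6.95 ± 4.93), Notch3 (6.34 ± 3.54) and Jag2 (5.39 ± 3.11) were lower and did not differ beyond their spread, and neither did Hey1 and Notch1. Dll4 (2.83 ± 2.53) and Dll1 (1.63 ± 0.144) were lowest and also overlapped. In Pbrm1 cKO the order changed at 2 places among the abundant genes. Jag1 stood at 229 ± 7.76 and Hes1 at 185 ± 11, so that Jag1 was above Hes1 in all 3 knockout libraries and below it in all 3 WT libraries. Notch1 stood at 56.1 ± 3.66 and Hey1 at 16.7 ± 0.755, with Notch1 the higher in every knockout library and in WT replicate 1, and Hey1 the higher in WT replicates 2 and 3. Notch2 remained highest at 842 ± 24.4.

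**Figure D3:**
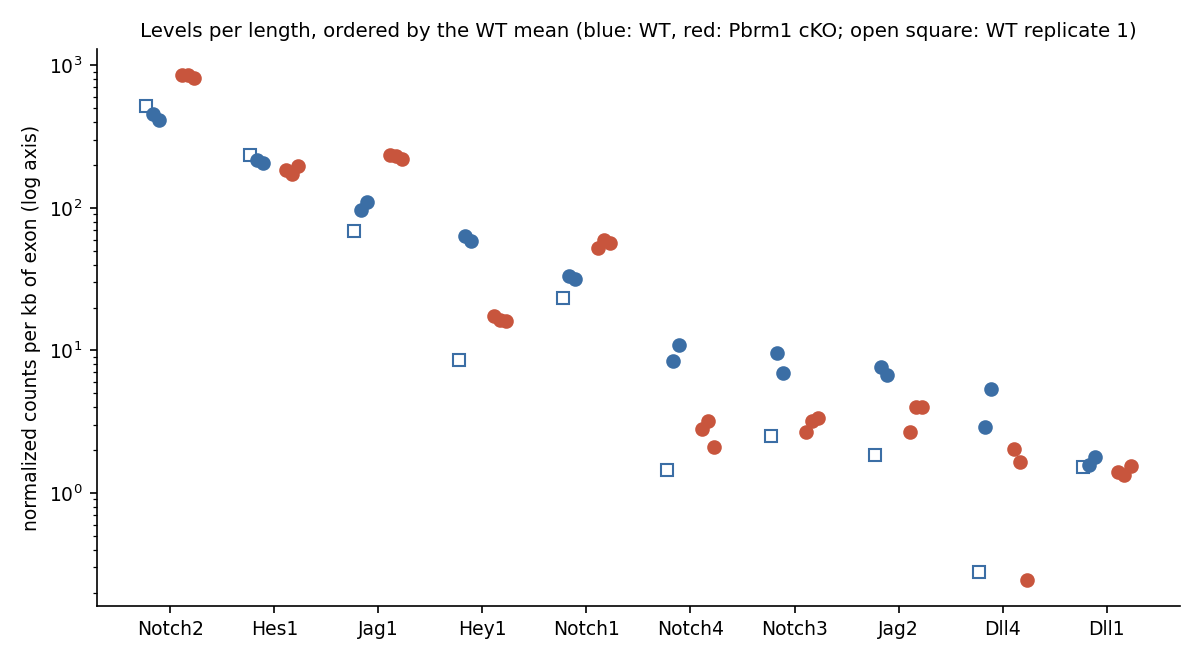
Normalized counts per kb of exon (log axis) for each Notch gene in WT (blue) and Pbrm1 cKO (red) libraries, ordered by the WT mean, with WT replicate 1 as an open square. Notch2 stood highest in all 6 libraries, and Jag1 moved from below Hes1 in WT to above it in Pbrm1 cKO.

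Within each family, 1 member made up most of the transcript level per kb. Notch2 was 91.4% ± 3.10 of the receptor level in WT and 93.2% ± 0.508 in the knockout (SD, 3 libraries per group), and these ranges overlapped. Notch1 was 5.90% ± 1.37 and 6.21% ± 0.473, Notch3 1.29% ± 0.735 and 0.342% ± 0.0463, and Notch4 1.43% ± 1.07 and 0.297% ± 0.0544. Since Notch1 and Notch2 rose by similar folds, their proportions stayed close. Jag1 was 95%, 88.8% and 88.9% of the ligand level in the WT libraries and 97.1% to 97.5% in Pbrm1 cKO, so the groups did not overlap. Jag2 was 4.98% ± 2.29 in WT and 1.53% ± 0.361 in Pbrm1 cKO, and Dll1 1.66% ± 0.366 and 0.610% ± 0.0709. A share of the ligand level falls when Jag1, most of that level, rises. Dll1 itself was not called, at a log2 fold change of -0.19 (adjusted p = 0.89). Dll4 ranged from 0.380% to 4.28% in WT and from 0.108% to 0.852% in Pbrm1 cKO.

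The 5 genes Notch3, Notch4, Dll4, Jag2 and Hey1 shared a pattern in WT: in replicate 1 each was below 50% of the mean of replicates 2 and 3. This cutoff was chosen after the values were seen, and 10.3% of all genes tested met it. The level of WT replicate 1 was 30.6% of that mean for Notch3, 15.0% for Notch4, 6.76% for Dll4, 25.7% for Jag2 and 14% for Hey1. The other 5 members ranged from 67.0% (Jag1) to 118% (Notch2). Markers of several cell types were also low there. WT replicate 1 was the lowest WT library for 11 of 12 endothelial, 11 of 12 leukocyte, 9 of 12 epithelial, 6 of 8 mural, 6 of 10 smooth muscle and 3 of 12 stromal markers. It was below 50% for 9, 9, 6, 4, 2 and 1 of them, respectively, so the pattern was not particular to endothelium. Pecam1, an adhesion molecule of endothelium, was measured at 137, 825 and 638 in WT and 298, 332 and 262 in Pbrm1 cKO. Rgs5, a pericyte marker, was measured at 103, 570 and 574 in WT and 159, 191 and 173 in Pbrm1 cKO, whereas Cspg4, the other mural marker named by rule, was measured at 2415, 2957 and 2587 in WT and rose to 3211 to 3595 (adjusted p = 0.00314). Cdh5, the cadherin of endothelial junctions, was the 1 endothelial marker not lowest there, at 774, 713 and 677 in WT and 190 to 201 in Pbrm1 cKO. With all libraries 3 of the 12 endothelial markers fell (15.2% of all genes did), and without WT replicate 1 11 of 12 fell (17.2% of all genes did).

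**Figure D4:**
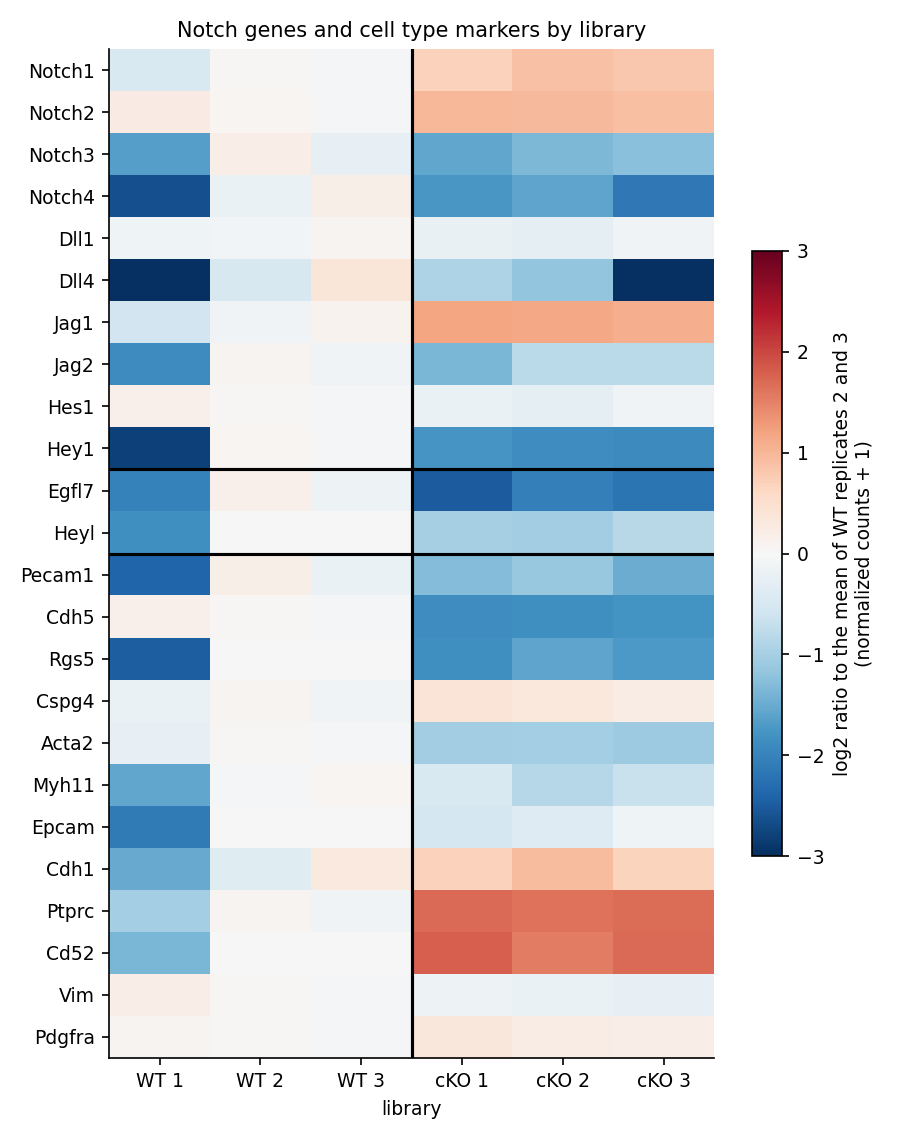
Log2 ratio of normalized counts (plus 1) in each library to the mean of WT replicates 2 and 3, for the 10 Notch genes, for Egfl7 and Heyl of the pathway, and for the first 2 genes of each marker list (endothelial, mural, smooth muscle, epithelial, leukocyte, stromal, from the top). Blue in the first column marks the genes that were low in WT replicate 1, among them Notch3, Notch4, Dll4, Jag2, Hey1, Pecam1, Rgs5, Epcam and Cd52, and not Cdh5 or Cspg4.

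The members were also expressed per 1000 normalized counts of a marker list, an arrangement chosen after the values were seen and given with no test. Per 1000 endothelial counts, Notch3 ranged from 5.89 to 11.2 in WT and from 6.54 to 9.17 in Pbrm1 cKO, and Jag2 from 3.72 to 7.81 and from 5.65 to 9.49. Notch4 ranged from 3.41 to 12.9 and from 5.69 to 7.20, and Hey1 from 8.06 to 30.3 and from 15.1 to 17.7. On this scale the knockout values of Notch3, Notch4 and Hey1 lay inside the WT range, and those of Jag2 overlapped it. The lower WT limit was WT replicate 1 for each of the 4. Eng was the largest part of the endothelial sum, and Cdh5 was highest in WT replicate 1, so a ratio to this sum is not a ratio to endothelial cells. In WT replicates 2 and 3, Notch4 was at 9.93 and 12.9 and Hey1 at 30.3 and 27.8, above all knockout libraries, whereas Notch3 (11.2 and 8.17) and Jag2 (7.81 and 6.75) still overlapped them. The other lists gave another picture, and the leukocyte sum is mostly Lyz2 and Cd74. Per 1000 leukocyte counts all 4 genes separated, with Notch3 at 5.22 to 9.15 in WT and 0.634 to 0.762 in Pbrm1 cKO, Notch4 at 3.02 to 10.7 and 0.473 to 0.748, Jag2 at 3.30 to 6.37 and 0.548 to 0.818, and Hey1 at 7.15 to 24.7 and 1.47 to 1.67. Per 1000 mural counts all 4 overlapped, with Notch3 at 2.12 to 7.40 in WT and 1.86 to 2.59 in Pbrm1 cKO, partly below the WT range. That overlap came from WT replicate 1 alone, since WT replicates 2 and 3 were above all knockout libraries, at 7.40 and 5.91 for Notch3, 6.54 and 9.32 for Notch4, 5.15 and 4.89 for Jag2 and 19.95 and 20.13 for Hey1, against knockout maxima of 2.59, 2.23, 2.68 and 5.01. The mural sum is mostly Pdgfrb and Cspg4, the 2 mural markers that rose without WT replicate 1 (18.3% of all genes did). In that fit 5 of the 8 fell (17.2% of all genes did), so a ratio to this sum is not a ratio to mural cells. Notch1, Notch2 and Jag1 behaved otherwise. Per 1000 endothelial counts, Notch1 went from 65.5 to 96.7 in WT to 223 to 273 in Pbrm1 cKO, Notch2 from 649 to 1609 to 2581 to 2963, and Jag1 from 82.2 to 117 to 380 to 432. Per 1000 leukocyte counts the order was the opposite, since that list rose more than they did: Notch1 went from 54.5 to 85.7 down to 21.7 to 24.7, Notch2 from 540 to 1426 down to 246 to 272, and Jag1 from 67.0 to 104 down to 35.8 to 39.9. The part of endothelial and leukocyte RNA in the changes of the Notch genes was not tested.

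Around the core genes, a list of 55 other Notch pathway genes was described by role. Of these, 51 were tested and 4 (Dll3, Dlk1, Hes5 and Hes7) had at most 3 counts in every library. Among those tested 12 rose and 9 fell, which is 41.2% called against 31.1% of all genes, and their median log2 fold change was 0.16 against -0.00074. That median stays the same with Nrarp, whose knockout counts were at the floor, set to its ratio at that floor. It ran from 0.097 to 0.197 under the alternatives named below, and from 0.10 to 0.14 on leaving out 1 library. Without WT replicate 1, 14 rose and 9 fell, where 18.3% of all genes rose and 17.2% fell.

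**Figure D5:**
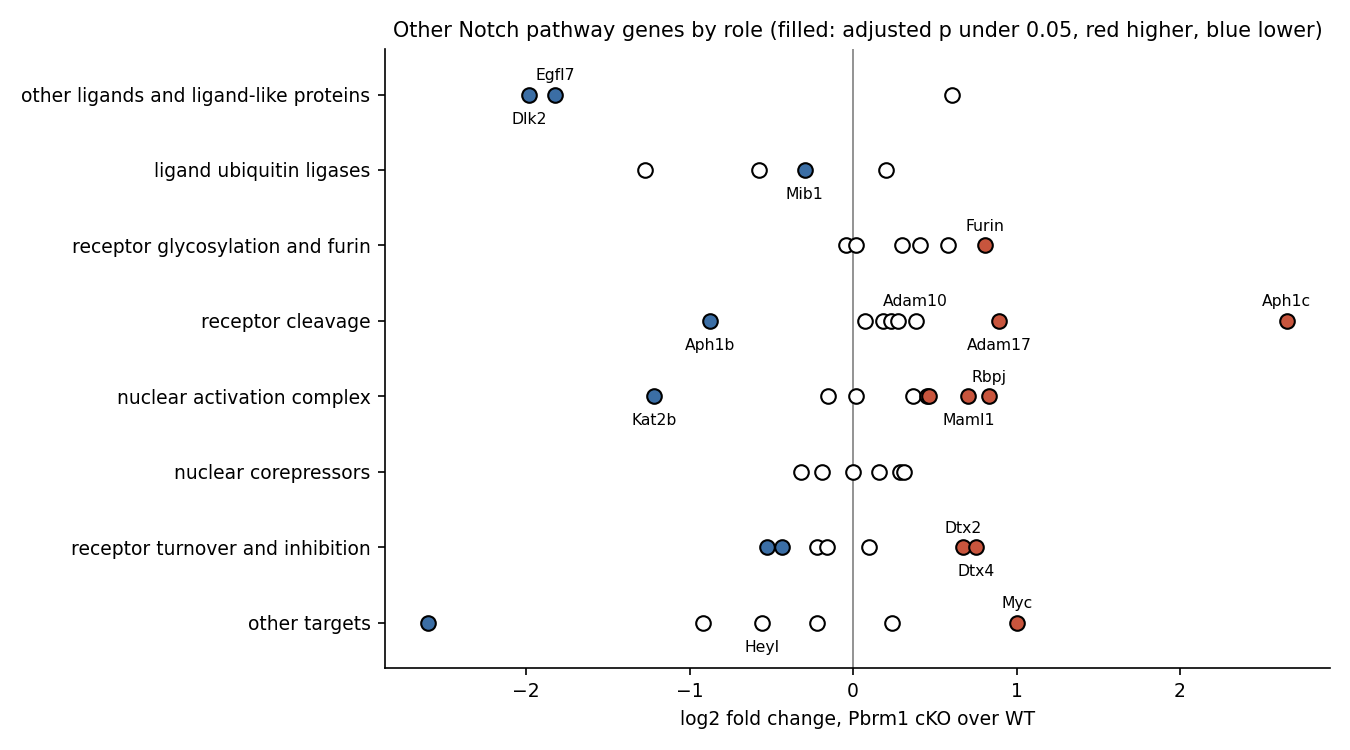
Log2 fold change (horizontal axis, Pbrm1 cKO over WT) of the tested genes of the wider Notch pathway by role, filled red where they rose and blue where they fell (adjusted p under 0.05), without Nrarp, whose knockout counts were at the floor, and without genes not reported here. Genes of the nuclear activation complex rose in 4 cases and fell in 1, and the named ligand-like genes Egfl7 and Dlk2 fell.

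Of the genes that mature and cut the receptor, 16.7% and 44.4% were called, on either side of the 31.1% of all genes. Of 6 genes for receptor glycosylation and furin, 1 rose: Furin, the protease that cuts Notch receptors on their way to the surface, went from 1595, 1180 and 1706 to 2684, 2786 and 2357 (log2 fold change 0.80 ± 0.15, adjusted p = 4.371e-07). Of 9 genes for receptor cleavage, 3 rose and 1 fell. Adam17, a sheddase of many membrane proteins including Notch, went from 887, 848 and 870 to 1668, 1581 and 1587 (0.89 ± 0.092, adjusted p = 2.118e-20), whereas Adam10, the main protease for ligand-driven cleavage, was measured at 492, 607 and 1078 in WT and 958, 939 and 940 in Pbrm1 cKO (0.38 ± 0.23, adjusted p = 0.216). Aph1b, an accessory subunit of gamma-secretase, fell, from 176, 161 and 133 to 78.9, 76.7 and 101 (-0.87 ± 0.22, adjusted p = 0.000459). Aph1c, which rose, was named after its values were seen, and went from 6.49 to 11.1 in WT to 53.5 to 56.2 in Pbrm1 cKO (2.65 ± 0.43, adjusted p = 1.445e-08). Aph1b and Aph1c are near-identical copies whose reads can be lost or split between them, so the values of both are uncertain.

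In the nucleus, 4 of 8 genes of the activation complex rose and 1 fell (62.5% called, against 31.1% of all genes). Rbpj, which tethers the Notch intracellular domain to DNA, was measured at 702, 645 and 720 in WT and at 1212, 1312 and 1148 in Pbrm1 cKO. The groups did not overlap (log2 fold change 0.83 ± 0.11, adjusted p = 7.948e-13). Maml1, a Mastermind coactivator, rose by 0.71 ± 0.11 (adjusted p = 1.006e-08), from 437 to 505 in WT to 757 to 792 in Pbrm1 cKO. The acetyltransferase gene Kat2b fell, from 766, 851 and 677 to 352, 316 and 318 (-1.22 ± 0.13, adjusted p = 4.657e-18).

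Genes that act on ligands and on receptor turnover went both ways, with 25% and 57.1% called against 31.1% of all genes. Of 4 ubiquitin ligases for ligands 1 fell, Mib1, which is needed for ligand endocytosis, at -0.30 ± 0.088 (adjusted p = 0.00392), from 2689 to 2924 in WT to 2179 to 2345 in Pbrm1 cKO. Of 7 genes for receptor turnover and inhibition 2 rose and 2 fell. Both that rose encode Deltex ubiquitin ligases: Dtx4 (0.75 ± 0.19, adjusted p = 0.000467) and Dtx2 (0.67 ± 0.17, adjusted p = 0.000379). The 2 that fell, named after their values were seen, were Numbl (-0.53 ± 0.13, adjusted p = 0.000327) and Fbxw7 (-0.44 ± 0.12, adjusted p = 0.00115), which is a ubiquitin ligase subunit that marks the Notch intracellular domain for degradation.

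Of 3 tested ligand-like genes 2 fell, against 15.2% of all genes. Egfl7, a secreted protein of endothelium that can bind Notch, was measured at 121, 549 and 446 in WT and at 87.8, 119 and 109 in Pbrm1 cKO. All knockout libraries were below all WT libraries, yet WT replicate 1 was close to them, as for the members that were low there (-1.82 ± 0.62, adjusted p = 0.0132; -2.24 without WT replicate 1). Dlk2, named after its values were seen, went from 31.0, 19.98 and 30.3 to 5.92, 7.99 and 6.57 (-1.98 ± 0.53, adjusted p = 0.00124), and WT replicate 1 did not stand apart.

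Other targets of the pathway did not share a direction. Of 7 that were tested, 1 rose and 2 fell (42.9% called, against 31.1% of all genes). Their median log2 fold change was -0.55, against -0.00074 over all genes tested. Myc, a growth regulator with many inputs besides Notch, went from 1288, 1111 and 1539 to 2732, 2717 and 2450 (1.00 ± 0.13, adjusted p = 5.819e-13). Nrarp, a feedback inhibitor of Notch, had raw counts of 5, 9 and 11 in WT and of 2, 2 and 0 in Pbrm1 cKO, where every library was at or under 3 counts. The WT mean was 3.33-fold above a floor of 3 counts per knockout library, a ratio that leaves out the spread and counting error of the WT libraries. In the fit Nrarp fell (adjusted p = 0.0277), and the interval of its log2 fold change was wide, from -5.07 to -0.77. Nrarp had no adjusted p in the fit without WT replicate 1. Hey2, named after its values were seen, was the second that fell, at 4.28, 18.9 and 14.1 in WT and 0 to 4.00 in Pbrm1 cKO (adjusted p = 0.0321). WT replicate 1 was next to the knockout range, and the adjusted p was 0.00957 without it. Heyl, a relative of Hey1, was measured at 33.1, 122 and 122 in WT and at 61.2, 59.1 and 68.5 in Pbrm1 cKO. As for Hey1, WT replicates 2 and 3 lay above the knockout libraries and WT replicate 1 below them, at -0.55 ± 0.41 (adjusted p = 0.33) with all libraries and -0.96 (adjusted p = 0.000971) without WT replicate 1.

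The nearest tested gene on each side of each member was taken as a view of the surrounding locus. Of these 20 neighbours 8 were called, 5 higher and 3 lower, which is 40.0% against 31.1% of all genes. The gene next to Notch1, Egfl7, fell where Notch1 rose. Both neighbours of Jag1 moved in its direction, Slx4ip by 0.78 (adjusted p = 0.029) and Btbd3 by 0.44 (adjusted p = 0.0261), the latter at a distance of 1139921 bases. Neither neighbour of Notch2 passed the threshold.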

How the data were processed

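RNA was sequenced from 3 WT and 3 Pbrm1 cKO preparations of mUSCs. The authors trimmed reads with cutadapt, aligned them to the mouse genome (GRCm38) with HISAT2 and counted them with featureCounts 1.6.4 against GENCODE release M18 counting reads on the reverse strand. What was deposited is a table of raw counts per gene and library, not normalized. Reads in more than 1 place or gene are not counted by default, which bears on near-identical copies. The labels describe random and poly(T) priming with transcript depletion and the study's methods poly(A) purification, so the RNA classes captured are not settled. Names were matched for 54079 of 54232 genes (99.7%) with GENCODE release M21.

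Counts of all genes were fitted in R 4.3.3 with the Wald test of DESeq2 1.42.0, using its default size factors and no covariates, and p-values were adjusted over 17474 genes (Benjamini-Hochberg). All adjusted p-values are from this fit unless another tool is named, and intervals are 95% from the SE, which includes the spread between replicates. The pipeline was tested on simulated data. Alternatives were edgeR 4.0.16, limma 3.58.1 (voom with a spread per group), TMM size factors, filterByExpr, no independent filtering, removal of a trend with gene length, a block for replicate number, the study's fold and p filter, and leaving out each library. Nothing in the labels says whether replicates came from separate cultures or days, so p-values measure the spread between these preparations. Counts of 3 or fewer per library were taken as the floor, and this floor covers counting error only, since reads carried no molecular identifiers.

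The members and lists were chosen with earlier results of these data known. Besides the members, genes named were the 2 called genes of each pathway role with the largest change and a mean of at least 50 normalized counts, Rbpj, Maml1, Adam10, Heyl and Nrarp, and the first 2 genes of each marker list. Genes outside this rule are named as such or as examples of a count. Some results that this rule would name are not reported here.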

Additional observations from a re-analysis of the deposited data

How the results depend on the processing

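The 3 rises held under all 14 alternatives, with log2 fold changes of 0.74 to 1.02 for Notch1, 0.72 to 0.96 for Notch2 and 1.14 to 1.46 for Jag1, and the fall of Pbrm1 held at -1.88 to -1.65. The number of members that fell depended on the processing. It was 0 with all libraries, 1 after filterByExpr (Notch4, adjusted p = 0.037, where 18.7% of genes fell), 2 after removal of the length trend (Notch3, adjusted p = 0.0467, and Notch4, adjusted p = 0.0354, where 15.7% fell), and 0 to 4 on leaving out 1 library, with 4 only without WT replicate 1. Leaving out 1 library moved Notch3 between -1.42 and -0.63, Notch4 between -1.84 and -0.87, Hey1 between -1.87 and -1.01, Jag2 between -0.99 and -0.25 and Dll4 between -1.64 and -0.26, and no member changed sign under the alternatives that gave it a value. Of the other pathway genes, 5 to 10 fell when 1 library was left out, with 5 without Pbrm1 cKO replicate 3, where 13.2% of all genes fell against 15.2% with all libraries. The cause of these shifts was not tested. Libraries of the same replicate number did not deviate together (r = 0.040, -0.039 and -0.00093), and with a replicate block, which gave Dll1 no adjusted p, the members had 3 rises and 0 falls as before, Notch3 at -0.89 (adjusted p = 0.199) and Notch4 at -1.05 (adjusted p = 0.19). Dll1 and Dll4 were too low to be tested with edgeR, limma voom or after filterByExpr, and the depth leaves their changes undetermined.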

Other observations

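Inside Notch2, on the same strand, lies the unclassified transcript Gm42819, chosen after the values were seen. It had 279 counts over the 6 libraries and rose by 0.82 on the log2 scale (DESeq2 adjusted p = 0.0487), close to the 0.87 of Notch2. A second such transcript, Gm42820, with 186 counts, had a log2 fold change of 0.77 (adjusted p = 0.155). Both overlap Notch2 on its strand, so their counts cannot be told apart from unspliced RNA of Notch2.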
